A study of Homo sapiens with 4 samples.

Results

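The genes described here are 10 trophoblast hormone, fusion and identity genes: CGA, GCM1, CYP11A1, SDC1, PGF, NR2F2, CCKBR, XAGE2, VGLL1 and TP63. They are 10 of the 23364 gene symbols counted in the series and were chosen by name, with earlier results of these data known. Their unique molecular identifiers (UMIs, tags that let each captured RNA molecule be counted a single time) were read in cells with at least 500 genes, and levels are given as CPM, the UMIs of a gene per 1e6 UMIs of a sample or cell set. GABRP and VTCN1, a GABA receptor subunit and a B7 family surface protein used as amnion markers, were read beside them.

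Single-cell 3′ libraries were made from undifferentiated KhES1 cells, a human pluripotent line cultured in mTeSR-1 (hESC 1 and hESC 2), and from KhES1 blastoids grown in iBlastoid medium with a hydrogel (blastoid 3 and blastoid 4). A blastoid is a stem cell aggregate cultured to resemble a blastocyst, and these were made from primed cells of a single line with no transgene named. The labels of the blastoid samples disagree on the day of collection, so the groups were taken from the labelled tissue. Nothing in the labels says that the samples of a group came from separate cultures, so p-values measure at most the spread between these samples, which may be technical.

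In the placenta, mononuclear cytotrophoblasts proliferate and fuse into the syncytiotrophoblast, the layer that meets maternal blood and secretes chorionic gonadotropin, steroids and angiogenic factors. The transcription factor GCM1 drives fusion by switching on syncytins, envelope proteins of endogenous retroviruses. Trophectoderm, the outer layer of the blastocyst, and amnion share many transcription factors, including GATA3 and TFAP2A, so genes of hormone output and fusion help to tell these lineages apart.

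The members play different roles. CGA encodes the alpha subunit shared by chorionic gonadotropin and the pituitary glycoprotein hormones, and CYP11A1 is the mitochondrial enzyme that makes pregnenolone from cholesterol. PGF is placental growth factor, a ligand of the receptor FLT1, and SDC1 is a heparan sulfate proteoglycan found on the syncytiotrophoblast and on other epithelia. GCM1, NR2F2 and TP63 are transcription factors, of fusion, of late trophectoderm and mesenchyme, and of progenitor cytotrophoblast and stratified epithelium respectively. VGLL1 is a cofactor of TEAD factors in trophectoderm and cytotrophoblast, CCKBR is the receptor of gastrin and cholecystokinin found in late trophectoderm, and XAGE2 belongs to a family of cancer and testis antigens with near-identical copies on the X chromosome, between which reads could be split.

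The start regions of CGA and VGLL1 are shown because CGA gave the most uneven counts among cells and VGLL1 encodes a partner of TEAD. Both windows are the 250 bases before the RefSeq start site in GRCh38.p14, written 5′ to 3′ on the gene's strand, at chr6:87095107-87095356 on the minus strand and chrX:136531965-136532214 on the plus strand. Capitals mark letters found by the motif search.
CGA: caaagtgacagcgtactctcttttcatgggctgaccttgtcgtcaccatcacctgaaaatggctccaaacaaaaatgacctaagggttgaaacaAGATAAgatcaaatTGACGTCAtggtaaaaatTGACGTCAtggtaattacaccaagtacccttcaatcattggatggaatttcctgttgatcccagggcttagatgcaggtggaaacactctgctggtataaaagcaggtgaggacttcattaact
VGLL1: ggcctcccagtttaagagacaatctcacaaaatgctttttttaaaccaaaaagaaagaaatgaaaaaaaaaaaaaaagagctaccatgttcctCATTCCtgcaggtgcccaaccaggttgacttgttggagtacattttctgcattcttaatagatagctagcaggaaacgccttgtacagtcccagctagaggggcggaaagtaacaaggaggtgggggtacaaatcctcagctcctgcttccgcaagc

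The search covered 250 bases before to 50 bases after each start, on both strands, for 5 short motifs. They were TGACGTCA, the cAMP response element, and AGATAA, bound by GATA3 and its relatives. The others were GCCNNNGGC, bound by TFAP2 factors, ATGCGGGT, bound by GCM1, and GGAATG, bound by TEAD factors. The CGA window held TGACGTCA 2 times, beginning 142 and 124 bases before the start, and AGATAA beginning 156 bases before it. Of 35116 RefSeq windows of 27305 genes, 1.85% held TGACGTCA, 10.3% held AGATAA and 0.0598% held TGACGTCA at least 2 times. GGAATG was found in the VGLL1 and XAGE2 windows and in 4928 of all windows. GCCNNNGGC was found in the CYP11A1 window, in 1 of the windows of NR2F2 and in 23.2% of all windows. ATGCGGGT, in 0.259% of all windows, was in none of the 13 windows of the 10 members. A match is a description of the letters and shows no binding.

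Libraries differed in depth. After leaving out barcodes with fewer than 500 genes and 73 called doublets, 2238, 3175, 2278 and 1916 cells were kept in hESC 1, hESC 2, blastoid 3 and blastoid 4, with a median of 4996 to 8798 UMIs per cell. The blastoid tables shared 1035 barcodes. No barcode was kept in both, but 1010 of the 1916 kept cells of blastoid 4 carried a barcode that also stood in the table of blastoid 3 with fewer than 500 genes. The stem cell tables shared 1317 barcodes, of which 23 were kept in both, and 1310 of the 3175 kept cells of hESC 2 carried one of them. As a check of the labels, the 10 pluripotency markers summed to 5512 and 5690 CPM in the stem cells and to 1076 and 996 in the blastoids. The 13 trophectoderm and amnion markers summed to 1035 and 1005 in the stem cells and 3751 and 5689 in blastoid 3 and blastoid 4, and the 14 mesoderm and mesenchyme markers to 110 and 109 against 3988 and 2768. The 8 hypoblast and endoderm markers were near 0 in every sample, at 2.11 to 12.2 CPM. The blastoid cells fell into a trophectoderm/amnion-like cluster (410 cells of blastoid 3 and 632 of blastoid 4), mesoderm/mesenchyme-like clusters (1752 and 1160 cells), unnamed clusters (93 and 117 cells, most of them in a cluster led by HPGD and NODAL) and a few pluripotent-like cells (23 and 7). The HPGD and NODAL cluster held all 13 trophectoderm and amnion markers and all 10 pluripotency markers in at least 10% of its cells. The trophectoderm/amnion-like cluster held 12 of those 13. The former stayed unnamed because none of the 13 was among its 10 leading genes.

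Of the 10 members, 9 were higher in the blastoids than in the stem cells, and SDC1 was not. CGA, GCM1, NR2F2, XAGE2, VGLL1 and TP63 were listed only in the blastoid tables, and CYP11A1, SDC1, PGF and CCKBR in all 4. The stem cell tables appear to list a gene only from about 3 barcodes, so an unlisted gene was taken as at most 2 UMIs per table, which over both tables has an exact upper 95% limit of 9.15 UMIs. Folds against such a gene set the mean of the 2 blastoid samples against this limit. They are lower bounds for that mean, and a single sample can lie below them. Those 6 genes passed the filter on low counts only through the blastoids and could only be called higher, so their count is a description. Of the 4 listed in all tables, 3 were called higher. The share of all tested genes that were called higher in this comparison was 27.1%.

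**Figure D1:**
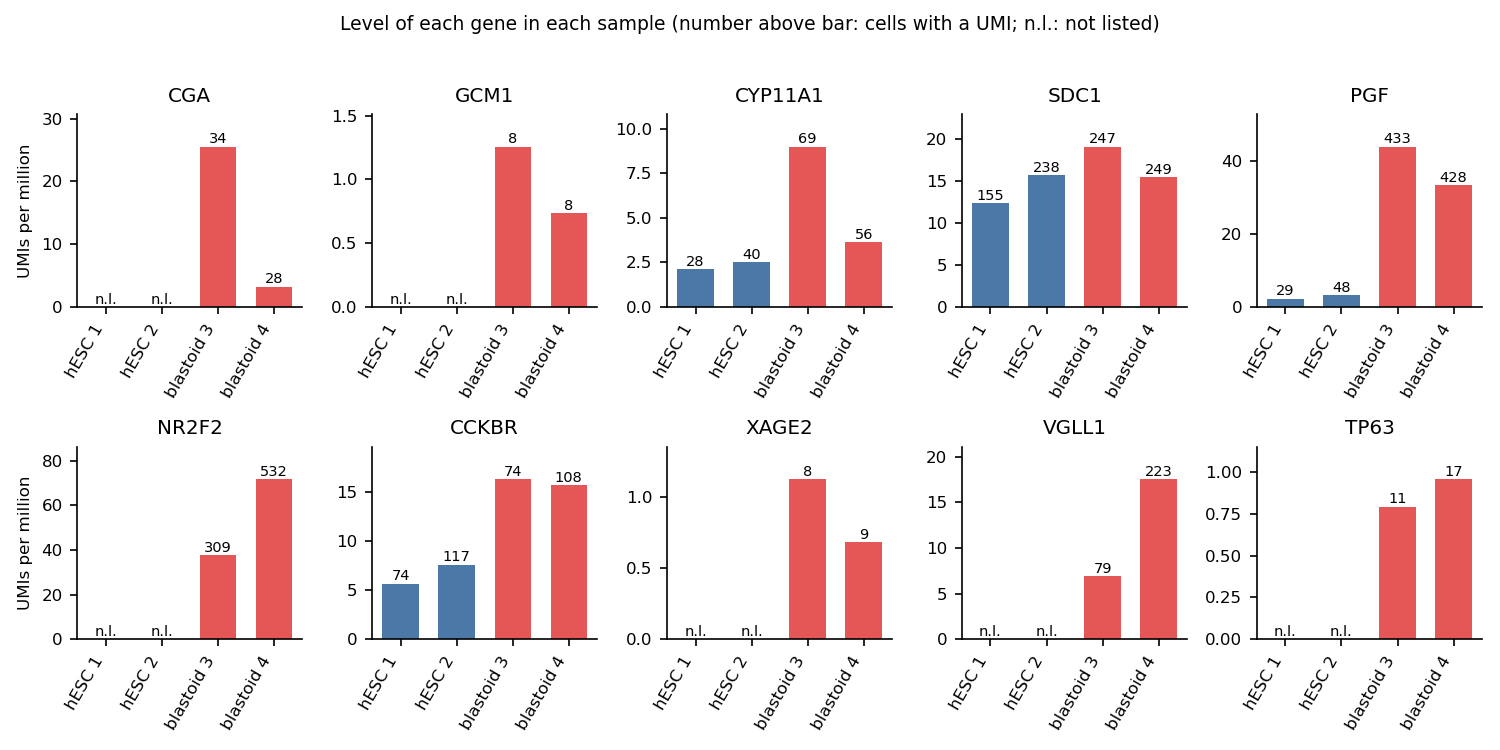
Bars give CPM over all kept cells for each gene in the 2 stem cell samples (blue) and the 2 blastoid samples (red), each bar a single sample; the number above a bar is the count of cells with a UMI, and n.l. marks a gene that the sample's table does not list. SDC1 lies at a like level in all 4 samples, from 12.4 to 19.1, and 6 genes are listed in the blastoids only.

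CGA, the hormone subunit, had 386 UMIs in 34 of 2278 kept cells of blastoid 3 (25.6 CPM) and 57 UMIs in 28 of 1916 cells of blastoid 4 (3.22 CPM). On TMM-scaled libraries blastoid 3 was at 23.6 CPM and blastoid 4 at 3.20 (mean 13.4 ± 14.4, SD, n = 2, edgeR adjusted p = 0.0073). Their mean was at least 40.8-fold above the stem cell limit. The SD exceeds the mean, and 3 cells of blastoid 3 held 345 of that sample's 386 CGA UMIs (89.4%). CYP11A1 was at 2.11 and 2.51 CPM in hESC 1 and hESC 2, 9.00 in blastoid 3 and 3.62 in blastoid 4. Its levels did not overlap between the groups and the log2 difference was 1.28 ± 0.42 (SE, edgeR adjusted p = 0.036). This call rested on few cells: without the 3 cells rich in CGA it was 0.72 (edgeR adjusted p = 0.059), without blastoid 3 it was 0.57 (edgeR adjusted p = 0.087), and without hESC 1 or hESC 2 the edgeR adjusted p was 0.11 or 0.075.

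PGF, the angiogenic ligand, was at 2.26 and 3.14 CPM in the stem cells and at 44.0 and 33.4 in blastoid 3 and blastoid 4. It rose by 3.69 ± 0.21 on the log2 scale (SE, edgeR adjusted p = 2.3e-05) and was detected in 433 and 428 blastoid cells. SDC1 was at 12.4 and 15.6 CPM in the stem cells and 19.1 and 15.4 in the blastoids, overlapping ranges with a log2 difference of 0.16 ± 0.17 (SE, edgeR adjusted p = 0.47).

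Among the transcription factors, GCM1 was rare: 19 UMIs in 8 cells of blastoid 3 and 13 UMIs in 8 cells of blastoid 4. These give 1.26 and 0.735 CPM, with a mean at least 2.88-fold above the stem cell limit (edgeR adjusted p = 0.0036). NR2F2 was the most widely detected of the 6 genes that only the blastoid tables list, with 567 UMIs in 309 cells of blastoid 3 and 1271 UMIs in 532 cells of blastoid 4. It was at 37.5 and 71.9 CPM, with a mean at least 162-fold above the limit (edgeR adjusted p = 0.00013). TP63 had 12 UMIs in 11 cells and 17 UMIs in 17 cells, or 0.794 and 0.962 CPM. Its mean was at least 2.57-fold above the limit (edgeR adjusted p = 0.0034).

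VGLL1 had 105 UMIs in 79 cells of blastoid 3 and 311 UMIs in 223 cells of blastoid 4, or 6.95 and 17.6 CPM. Its mean was at least 36.4-fold above the stem cell limit (edgeR adjusted p = 0.0009). CCKBR was present in the stem cells too, at 5.66 and 7.60 CPM against 16.4 and 15.7 in the blastoids, a log2 difference of 1.14 ± 0.19 (SE, edgeR adjusted p = 0.0023). The CCKBR counts differed in kind: no stem cell held more than 2 UMIs, while single blastoid cells reached 21 and 14 UMIs and 17 cells of each blastoid sample held at least 5. XAGE2 had 17 UMIs in 8 cells and 12 UMIs in 9 cells, 1.12 and 0.679 CPM, with a mean at least 2.61-fold above the limit (edgeR adjusted p = 0.004). A single cell of blastoid 3 held 10 of the 17. Without the 3 cells rich in CGA, GCM1 and XAGE2 fell below the filter on low counts, and 6 of the 8 members still tested were called higher. Of those 6, CGA, NR2F2, VGLL1 and TP63 are unlisted in the stem cells and could only be called higher.

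Over all 10 members the median log2 difference was 6.73, or 1.45 with the 6 unlisted genes at their lower bounds, beside 0.05 over all 16332 genes tested. With cells of shared barcodes left out, which removes 1310 cells of hESC 2 and 1010 of blastoid 4, 4 of 7 members tested were called higher: CGA, PGF, NR2F2 and VGLL1. CGA, NR2F2 and VGLL1 are unlisted in the stem cells and could only be called higher. Of the members listed in all tables, PGF alone was called. CCKBR (edgeR adjusted p = 0.069) and CYP11A1 (edgeR adjusted p = 0.088) were then not called, and GCM1, XAGE2 and TP63 were no longer tested. Scaling by library size alone shifts the median of all genes by 0.13 on the log2 scale and left the same 9 members called.

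Shares of cells with a UMI were compared at equal depth by thinning each cell to 2000 UMIs, which left 1803, 2202, 2171 and 1874 cells. At that depth 8 of the 10 members were higher in both blastoid samples than in either stem cell sample, against 37.0% of all genes detected. CGA, NR2F2, XAGE2, VGLL1 and TP63 are unlisted in the stem cells and could not be lower, so their count is a description. Of the 4 members listed in all tables, CYP11A1, PGF and CCKBR were higher in both. With 2 samples against 2 the exact two-sided permutation test cannot go below p = 0.33, which is its value for each of the 8. NR2F2 was seen in 5.16% (exact 95% interval 4.27 to 6.18) of thinned cells of blastoid 3 and 11.05% (9.66 to 12.55) of blastoid 4 and in none of the stem cells. PGF was seen in 7.05% and 5.55% of blastoid cells against 0.555% and 0.409% of stem cells, and VGLL1 in 1.06% and 2.83% against none. CCKBR was at 1.52% and 1.81% against 0.832% and 1.50%, so blastoid 3 and hESC 2 differed by far less than their counting intervals. SDC1 overlapped, at 2.99% and 3.04% against 2.496% and 3.22%. GCM1 was left in 3 thinned cells of blastoid 3 and none of blastoid 4, where 0 of 1874 cells allows a share of up to 0.197% (exact 95% limit). The intervals cover counting error only. Without thinning, GCM1, also unlisted in the stem cells, joined the others and 9 members were higher in both blastoid samples.

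Within the blastoids the members fell into different cells. A set of 8, CGA, GCM1, CYP11A1, NR2F2, CCKBR, XAGE2, VGLL1 and TP63, were highest in CPM in the trophectoderm/amnion-like cluster in both samples when the mesenchyme-like clusters were pooled and the unnamed ones likewise. PGF and SDC1 were not. At a finer clustering (resolution 1.0) XAGE2 was no longer in this set. Taken singly, an unnamed cluster of 12 cells in blastoid 4 held CYP11A1 at 25.1 CPM, from 3 UMIs in 2 cells, against 7.74. A mesenchyme-like cluster of 40 cells held GCM1 at 2.30 CPM, from 1 UMI, against 1.81. The clusters were made without these genes and without GABRP and VTCN1, and the levels are given as a description with no test. The share of all genes that were highest in this cluster by the same rule was not counted.

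**Figure D2:**
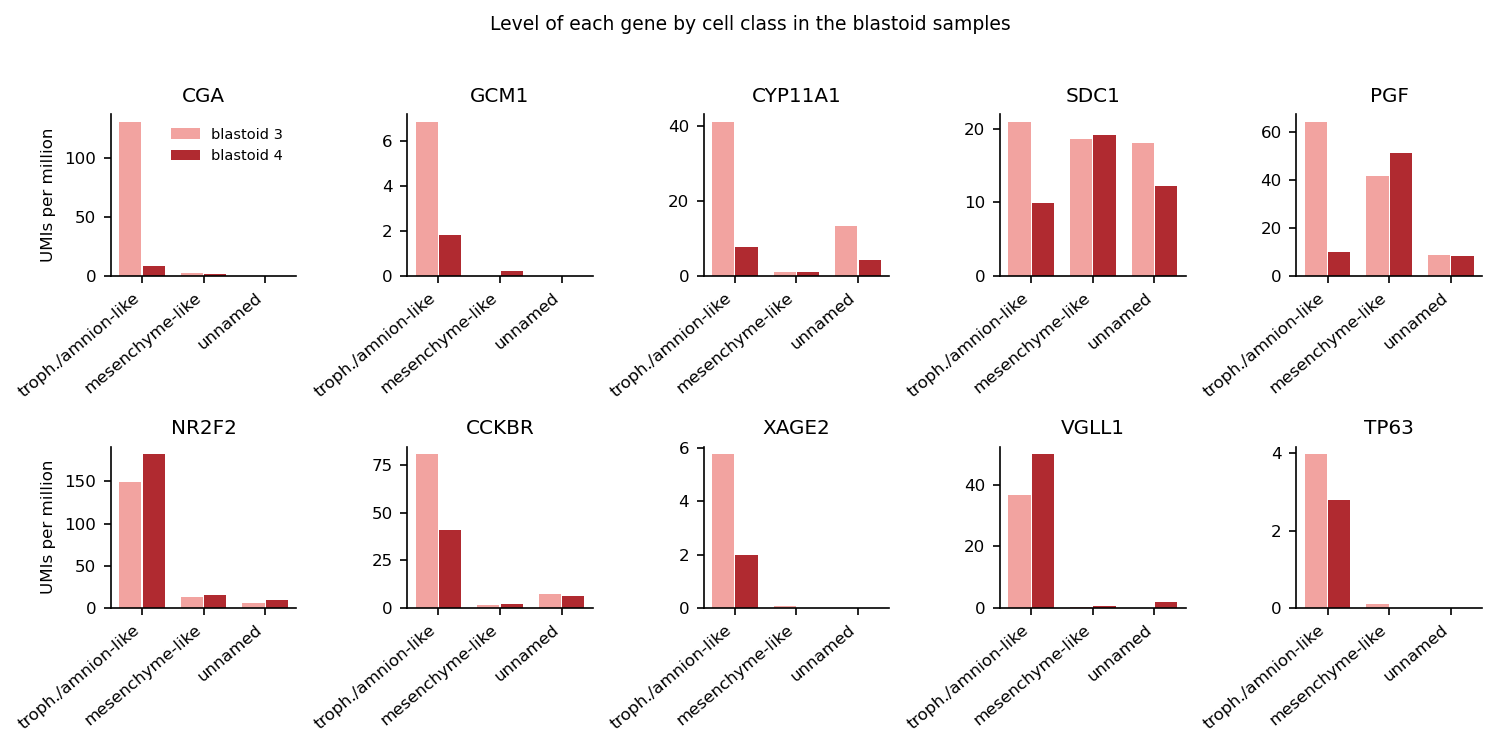
Bars give CPM in the trophectoderm/amnion-like cluster, the mesoderm/mesenchyme-like clusters and the unnamed clusters of blastoid 3 (light) and blastoid 4 (dark), each bar the sum over the cells of a single sample. NR2F2, CCKBR and VGLL1 stand in the trophectoderm/amnion-like cluster in both samples, while SDC1 is spread over all 3 and PGF in blastoid 4 is highest in the mesenchyme-like cells.

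VGLL1 was the most restricted of the well detected members: 97.1% of its UMIs in blastoid 3 and 97.4% in blastoid 4 lay in the trophectoderm/amnion-like cluster. It was found in 18.5% of that cluster's cells in blastoid 3 and 34.0% in blastoid 4, against 0.171% and 0.431% of the mesenchyme-like cells. NR2F2 was found in 43.4% and 63.3% of the cluster's cells. It also lay in 7.25% and 10.9% of mesenchyme-like cells, where its level was 12.8 and 14.9 CPM against 149 and 182 in the cluster. Median depths of the 2 kinds of cells were close, at 6199.5 and 6181 UMIs in blastoid 3 and 9063.5 and 8398.5 in blastoid 4.

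CCKBR was found in 12.7% and 13.1% of the cluster's cells at 80.8 and 41.2 CPM, against 1.395 and 1.88 in mesenchyme-like cells. CYP11A1 was found in 11.7% and 6.33% of the cluster's cells at 41.1 and 7.74 CPM, against 0.959 and 1.09. The unnamed clusters held CYP11A1 as well, at 13.3 and 4.08 CPM. TP63 had 11 of its 12 UMIs and all 17 of its 17 in the trophectoderm/amnion-like cluster, and XAGE2 16 of 17 and 12 of 12. GCM1 had all 19 of its UMIs there in blastoid 3 and 11 of 13 in blastoid 4.

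Most of the cells with CGA held a single UMI, and a few held many. In blastoid 3 a single CGA UMI was found in each of 24 of 1752 mesenchyme-like cells, 1.37% (exact 95% interval 0.880 to 2.03), which overlaps its share of 2.44% (1.18 to 4.44) in the trophectoderm/amnion-like cluster. In blastoid 4 the shares were 0.776% (0.355 to 1.47) and 3.01% (1.82 to 4.66). The intervals of the 2 kinds of cells thus overlapped in blastoid 3 and did not overlap in blastoid 4. Whether the single CGA UMIs of mesenchyme-like cells are background was not tested. Cells with 5 or more CGA UMIs, 5 in blastoid 3 and 4 in blastoid 4, were all in the trophectoderm/amnion-like cluster.

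PGF and SDC1 were mostly found outside that cluster. PGF lay in 22.4% and 32.8% of mesenchyme-like cells, at 41.5 and 51.3 CPM, and in 8.29% and 5.70% of the trophectoderm/amnion-like cells. The cluster held 26.8% of the PGF UMIs of blastoid 3 and 10.2% of those of blastoid 4. Its level there was 64.2 CPM in blastoid 3, where the 3 cells rich in CGA held 120 of its 178 PGF UMIs, and 9.88 in blastoid 4. SDC1 lay in 11.3% and 15.1% of mesenchyme-like cells and 8.54% and 9.18% of the cluster's cells, with 20.1% and 22.1% of its UMIs in the cluster.

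At a finer clustering the trophectoderm/amnion-like cluster divided in 2, and several members lay mostly in 1 of the new groups. A group of 389 cells (211 in blastoid 3 and 178 in blastoid 4), led among the genes used for clustering by FABP7, TAC3 and MUC15, held 360 of the 362 CGA UMIs and all 19 GCM1 UMIs of blastoid 3. CCKBR was in 17.5% and 29.2% of these cells, against 7.54% and 6.83% of the other 653 cells, led by IGFBP7 and TGFBI. CYP11A1 was in 18.0% and 16.9% against 5.03% and 2.20%, and TP63 in 4.74% and 7.87% against 0% and 0.661%. GABRP went the other way, in 52.1% and 57.9% of the first group and 78.9% and 92.7% of the second. NR2F2 was in 41.7% and 42.1% of the first and 45.2% and 71.6% of the second, and VGLL1 in 17.5% and 30.3% against 19.6% and 35.5%. XAGE2 was rarer in the first group, in 2 and 1 cells against 5 and 8.

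In blastoid 3, 3 cells stood apart by their CGA counts and were looked at for that reason, after their values had been seen. They held 260, 50 and 35 CGA UMIs out of 17716, 15108 and 12553 UMIs in all, a summed 7603 CPM. The next highest blastoid cells held fewer than 20. They make up 0.132% of the 2278 cells of blastoid 3 (exact 95% interval 0.0272 to 0.384), and 0 of 1916 cells in blastoid 4 allows a share of up to 0.157% by a limit of 3 counts. All 3 lay in the trophectoderm/amnion-like cluster, and their doublet scores were 0.0589 each, with no doublet call, while by total UMIs they ranked 7, 33 and 95 among the cells of blastoid 3. The part of depth in their counts was not tested.

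**Figure D3:**
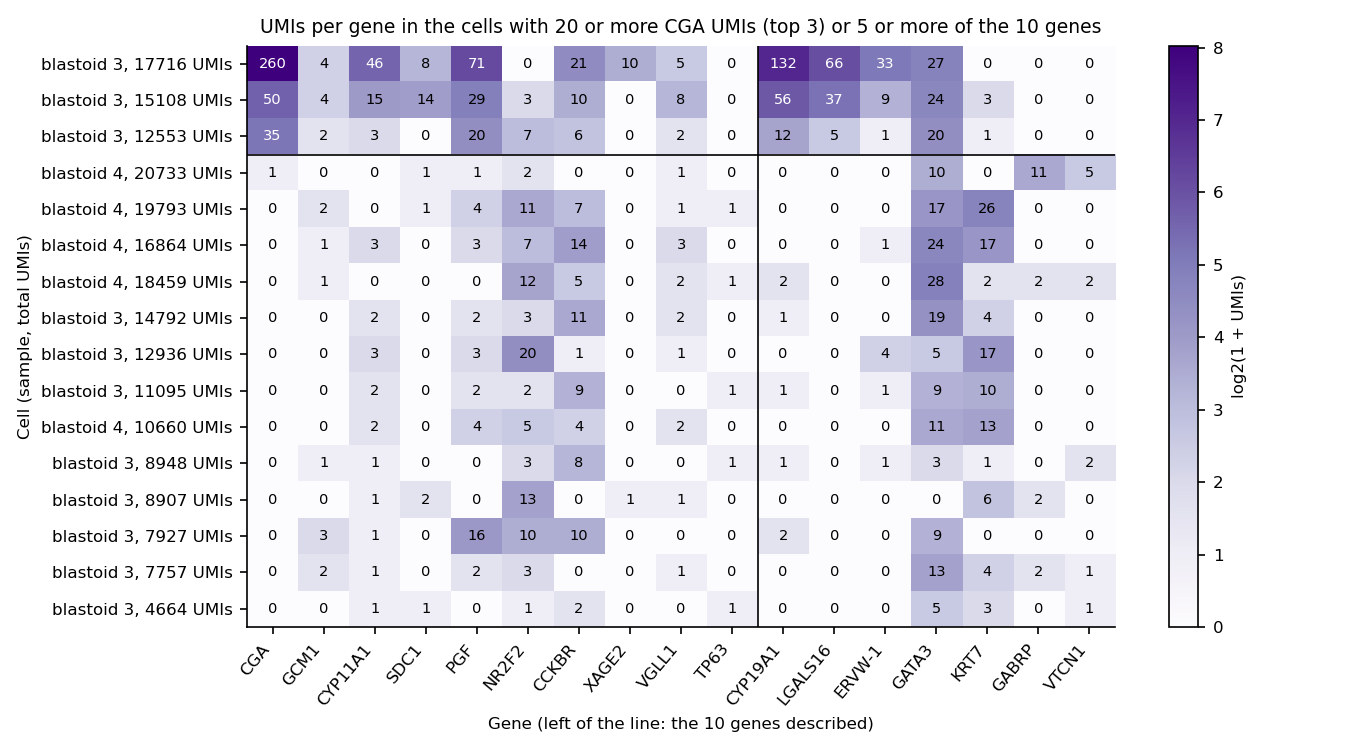
Each row is a cell, labelled with its sample and total UMIs, and each column a gene; the printed number is the UMI count and the shade its log2(1 + UMIs). The top 3 rows are the cells with at least 20 CGA UMIs (260, 50 and 35), which also carry CYP19A1 and LGALS16 and no GABRP or VTCN1, and the other 13 rows are the remaining cells with at least 5 of the 10 genes.

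Each of these cells held 7 or 8 of the 10 members. In the order of their CGA counts they had 71, 29 and 20 UMIs of PGF, 46, 15 and 3 of CYP11A1, 21, 10 and 6 of CCKBR, 4, 4 and 2 of GCM1, and 5, 8 and 2 of VGLL1. SDC1 was at 8, 14 and 0, NR2F2 at 0, 3 and 7, and XAGE2 at 10, 0 and 0. TP63 was at 0 in all 3. The cell with the most CGA thus had no NR2F2, and the cell with the least CGA had the most NR2F2 of the 3.

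Other genes of the syncytiotrophoblast were found in the same cells. CYP19A1, the aromatase that makes oestrogens, had 132, 56 and 12 UMIs, which is 82.0% of all its UMIs in blastoid 3. LGALS16, a placental galectin, had 66, 37 and 5 UMIs, or 97.3% of its UMIs in that sample, and it was found in no kept cell of blastoid 4. ERVW-1, the fusion protein syncytin-1, had 33, 9 and 1 UMIs, and all 6 UMIs of ERVFRD-1, syncytin-2, in blastoid 3 were in 2 of these cells. HSD17B1 had 1, 13 and 7 UMIs. GATA3, at 27, 24 and 20 UMIs, and TFAP2C, at 5, 25 and 4, were present in all 3, and SIGLEC6 in 1. GABRP, VTCN1, POU5F1 and COL1A1 were at 0 in each of them. PSG2, HSD3B1, LEP, KISS1, CGB7, PAPPA, PAPPA2, TFPI2 and LGALS14 were also at 0 there. Other CGB, PSG and CSH genes of the list looked up, INSL4, LGALS13 and ALPP were listed under these symbols for none of the 4 samples. They have no counts to read.

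In CPM, PGF was at 2645 in the 3 cells together, 21.3 in the other trophectoderm/amnion-like cells of blastoid 3 and 41.5 in its mesenchyme-like cells. CYP11A1 was at 1410, 18.3 and 0.959, and CCKBR at 815, 68.6 and 1.395 in the same order. GCM1 was at 220, 3.30 and 0. VGLL1 was at 331, 31.9 and 0.262 and NR2F2 at 220, 148 and 12.8. KRT7, a keratin of trophoblast and amnion, was lower in the 3 cells than in the rest of the cluster, at 88.2 against 244. These figures describe 3 chosen cells and carry no test.

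Beyond these 3, few cells held many members at the same time. At least 5 members were found in 11 cells of blastoid 3 and 5 cells of blastoid 4, all in the trophectoderm/amnion-like cluster. In blastoid 4 the fullest cell held 7 members in 19793 UMIs, with 11 UMIs of NR2F2, 7 of CCKBR, 4 of PGF and 2 of GCM1 but no CGA. CGA and GCM1 were found together in the 3 cells rich in CGA and in no other blastoid cell.

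Of the 45 pairs of members, 43 were seen together in at least 1 blastoid cell and 14 in at least 20. The exceptions were CGA with TP63 and XAGE2 with TP63. The commonest pair, NR2F2 and VGLL1, was in 191 cells, which is 22.7% of the 841 cells with NR2F2 and 63.2% of the 302 cells with VGLL1. CYP11A1 and CCKBR were together in 35 cells, 28.0% of the 125 cells with CYP11A1 and 19.2% of the 182 cells with CCKBR, and all 35 lay in the trophectoderm/amnion-like cluster. Within that cluster CCKBR was found in 39.6% (exact 95% interval 25.8 to 54.7) of the cells with CYP11A1 in blastoid 3 and 9.12% (6.36 to 12.6) of those without. In blastoid 4 it was in 16 of 40 such cells (24.9% to 56.7%) against 11.3% (8.88 to 14.2). The cells with CYP11A1 were deeper, at medians of 7879 and 10422.5 UMIs against 5937 and 8900.5, and the part of depth in this was not tested. SDC1 and PGF shared 132 cells, of which 10 lay in the cluster.

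Correlations of log-scaled UMIs across the kept cells of each blastoid sample (2278 and 1916 cells) gave the genes most like each member. They are descriptions without a test, over cells that share a library and vary in depth, and in sparse counts most are weak. Among 13894 genes the nearest to CYP11A1 was CCKBR (Pearson r = 0.362 in blastoid 3 and 0.300 in blastoid 4), followed by CAV1 and IFI6, which were also the nearest to CCKBR together with SH2D4A. The nearest to NR2F2 were CYP1B1 (0.393 and 0.403), CLDN4 and KRT7. For VGLL1 they were GABRP (0.318 and 0.405), SLC2A3 and CLDN4. For PGF they were the mesenchymal genes WNT5A (0.148 and 0.235), HOXB-AS3 and CDH11. For CGA they were PWWP2B (0.193 and 0.136), STS and MXD1. No gene reached 0.1 in both samples for SDC1, and GCM1, XAGE2 and TP63 were in too few cells for the measure.

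The next comparison asks which members were found in the same cells as the amnion markers GABRP and VTCN1. GABRP was not restricted to the blastoids. It was found in 124 of 2238 kept cells of hESC 1 (10.7 CPM) and 128 of 3175 of hESC 2 (8.92 CPM). VTCN1 was listed in the blastoids only. Cells with at least 1 UMI of GABRP or VTCN1 numbered 349 of 2278 in blastoid 3 and 628 of 1916 in blastoid 4. Over all kept cells, CYP11A1, NR2F2, CCKBR, XAGE2, VGLL1 and TP63 were higher in them than in the other cells, and CGA, SDC1 and PGF were lower. GCM1 did not pass the filter on low counts. So 9 of the 9 members tested were called, where 47.1% of all genes were. XAGE2 and TP63 passed that filter only through the cells with GABRP or VTCN1. They could only be called higher, so their part in this count is a description. Of the calls over all genes 51.4% were higher, or 38.3% with scaling by library size alone, which left the same 9 members called. The 2 sets of cells differ in kind, since 86.8% and 89.3% of the cells with GABRP or VTCN1 lay in the trophectoderm/amnion-like cluster and 5.55% and 5.51% of the others. Both sets come from the same 2 libraries, which leaves few residual degrees of freedom. The SE and p-values here and within the cluster therefore lean on a spread pooled over genes.

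VGLL1 was at 28.4 and 43.6 CPM in the cells with GABRP or VTCN1 of blastoid 3 and blastoid 4 and at 2.70 and 3.49 in the others, a rise of 3.66 ± 0.19 on the log2 scale (SE, edgeR adjusted p = 7.3e-20). NR2F2 was at 111 and 162 against 22.9 and 23.3 CPM (2.69 ± 0.11, SE, edgeR adjusted p = 1.3e-23). CCKBR was at 33.1 and 21.4 against 13.0 and 12.6 (1.16 ± 0.16, edgeR adjusted p = 1.1e-07). In each of these genes both samples moved in the same direction. PGF was at 13.6 and 8.69 CPM in the cells with GABRP or VTCN1 and at 49.99 and 46.8 in the others, and fell by 2.08 on the log2 scale (SE 0.16, edgeR adjusted p = 1.5e-14). CGA was at 4.39 and 2.90 against 29.8 and 3.40, a log2 difference of -1.58 ± 0.32 (SE, edgeR adjusted p = 7.2e-05). In blastoid 3 the 3 cells rich in CGA, with no GABRP or VTCN1, held 345 of the 375 CGA UMIs of the other cells. The call for CGA thus rested on few cells. It was lost without the sample block (edgeR adjusted p = 0.16) and after thinning to 2000 UMIs (-0.23, edgeR adjusted p = 0.85). CCKBR lost its call after thinning to 2000 UMIs (0.70, edgeR adjusted p = 0.20). CYP11A1, SDC1, XAGE2 and TP63 also lost their calls in 1 or more of the settings tried.

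Within the trophectoderm/amnion-like cluster the picture for CYP11A1 and CCKBR turned around. This setting was chosen after the data had been seen. The cluster's cells with GABRP or VTCN1 (303 in blastoid 3 and 561 in blastoid 4) were compared with those without (107 and 71), whose median depth was lower, at 5247 and 8195 UMIs against 6468 and 9255. CGA, GCM1, CYP11A1, SDC1, PGF and CCKBR, 6 of the 8 members tested, were lower in the cells with GABRP or VTCN1, where 2.38% of all genes were called lower. CGA and GCM1 passed the filter on low counts only through the cells without GABRP or VTCN1. They could only be called lower, so their part in this count is a description. NR2F2 and VGLL1 were not called, and XAGE2 and TP63 were not tested.

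**Figure D4:**
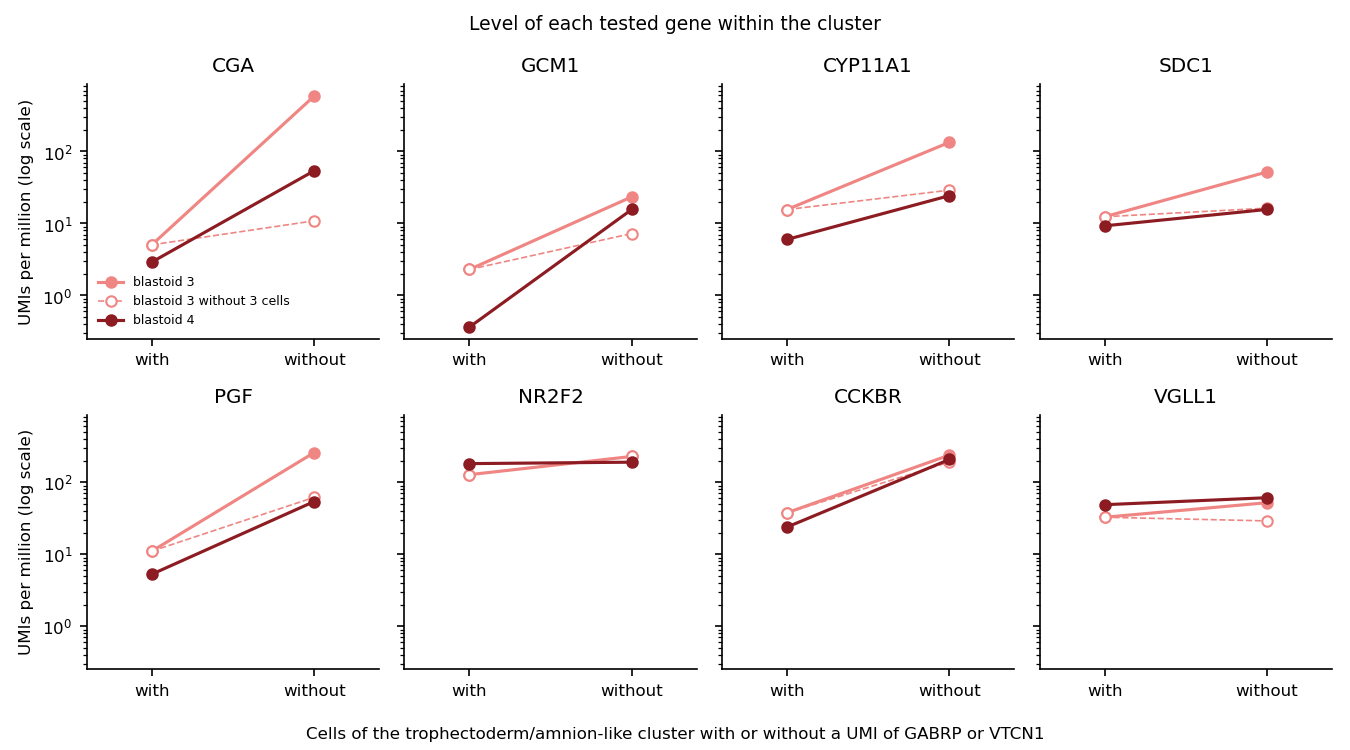
Points give CPM (log scale) in cells of the trophectoderm/amnion-like cluster with and without a UMI of GABRP or VTCN1, for blastoid 3 (light) and blastoid 4 (dark), each point a sum over cells of a single sample; open points leave out the 3 cells with at least 20 CGA UMIs. CCKBR and PGF are higher in the cells without GABRP or VTCN1 with and without those 3 cells, and NR2F2 and VGLL1 were not called, at 127 against 228 CPM and 32.6 against 52.0 in all of the cluster's cells of blastoid 3.

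CCKBR was at 37.7 and 23.8 CPM in the cluster's cells with GABRP or VTCN1 and at 238 and 207 in those without, a log2 difference of -2.88 ± 0.18 (SE, edgeR adjusted p = 2.2e-19). Both samples gave it, and without the 3 cells rich in CGA it was -2.74 (edgeR adjusted p = 2.5e-16). PGF was at 11.03 and 5.28 against 258 and 54.0 (-4.01 ± 0.26, edgeR adjusted p = 2.7e-19), and -2.90 without the 3 cells (edgeR adjusted p = 2.7e-09). CYP11A1 was at 15.6 and 6.002 against 134 and 24.4 (-2.69 ± 0.29, edgeR adjusted p = 1.8e-10), and -1.38 without the 3 cells (edgeR adjusted p = 0.027). Without the 3 cells, the cells lacking GABRP or VTCN1 held 16 and 14 CYP11A1 UMIs in blastoid 3 and blastoid 4.

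CGA was at 5.06 and 2.91 CPM with GABRP or VTCN1 and at 588 and 54.0 without (-5.76 ± 0.28, SE, edgeR adjusted p = 2.3e-24). The fall was far larger in blastoid 3 than in blastoid 4, a spread that this SE does not show. Leaving out the 3 cells brought blastoid 3 from 588 down to 10.9, and the log2 difference to -3.20 (edgeR adjusted p = 1.8e-06). That left 6 CGA UMIs in the cells without GABRP or VTCN1 of blastoid 3, and 31 in those of blastoid 4. GCM1 was at 2.30 and 0.364 against 23.5 and 15.7 (-4.08 ± 0.61, edgeR adjusted p = 1.1e-06) from 30 UMIs in all, and was not tested without the 3 cells. SDC1 was at 12.4 and 9.28 against 52.0 and 15.7 (-1.50 ± 0.36, edgeR adjusted p = 0.0043), a call that was lost without the 3 cells (-0.55, edgeR adjusted p = 0.68). So 4 members, CGA, CYP11A1, PGF and CCKBR, were lower with and without those cells, of which CGA could only be called lower. NR2F2 was at 127 and 181 against 228 and 190 (-0.42 ± 0.15, edgeR adjusted p = 0.11), and VGLL1 at 32.6 and 48.7 against 52.0 and 60.9 (-0.45 ± 0.24, edgeR adjusted p = 0.40).

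Counted by cells, the share with GABRP or VTCN1 did not fall evenly with the number of members. In the trophectoderm/amnion-like cluster of blastoid 3 it was 66.4% of the 146 cells with none of the 10 genes, 80.3% with 1, 86.2% with 2, 70.0% with 3 and 47.4% (exact 95% interval 24.5 to 71.1) of the 19 cells with 4 or more. In blastoid 4 it was 78.4%, 93.4%, 94.0%, 88.7% and 51.9% (32.0 to 71.3) of 27 cells. Cells with 4 or more members were the deepest, at medians of 10963 and 13004 UMIs, and those with none the shallowest, at 5285.5 and 6942.

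**Figure D5:**
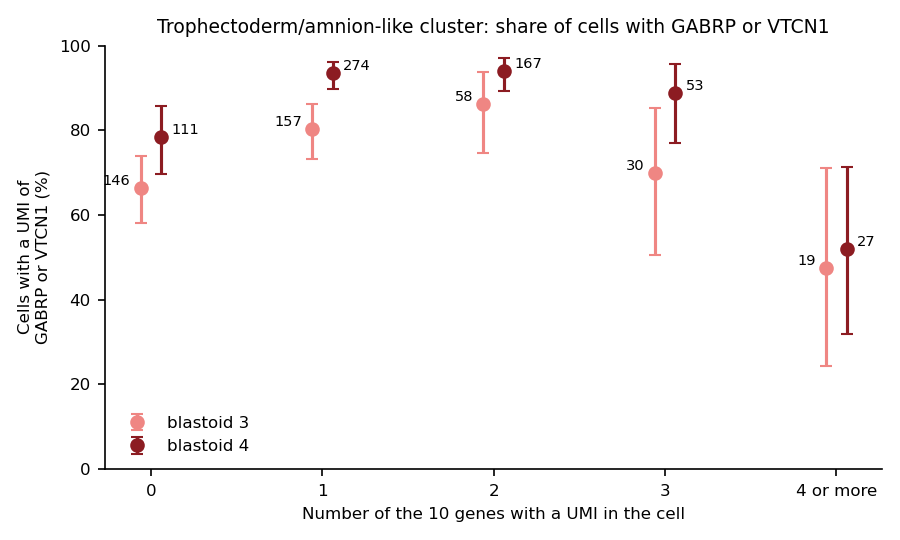
Points give the percentage of cells of the trophectoderm/amnion-like cluster with a UMI of GABRP or VTCN1, by the number of the 10 genes found in the cell, for blastoid 3 (light) and blastoid 4 (dark); bars are exact 95% binomial intervals for counting error and the numbers are cells. Both samples are lowest at 4 or more genes, at 47.4% and 51.9%.

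At equal depth of 2000 UMIs over all kept cells, 5 members had a higher share of GABRP or VTCN1 among the cells with the gene than among those without in both samples: CGA, CYP11A1, NR2F2, XAGE2 and VGLL1. For CGA this rests on 3 of 13 cells and 4 of 10. Thinned to 4000 UMIs, the share for CGA in blastoid 4 was 23.1% against 28.2%, and unthinned in blastoid 3 it was 14.7% against 15.3%. At 2000 UMIs the share for CYP11A1 in blastoid 4 was 21.4% against 20.9%, from 3 of 14 cells. CCKBR and TP63 had the higher share in both samples when thinned to 4000 UMIs and when unthinned. For CCKBR thinned to 4000 UMIs it was 45.0% against 12.8% and 38.2% against 27.9%, from 40 and 55 cells. For VGLL1 at 2000 UMIs it was 60.9% (exact 95% interval 38.5 to 80.3) against 9.22% in blastoid 3 and 69.8% (55.7 to 81.7) against 19.4% in blastoid 4. For PGF it was 3.92% against 10.2% and 0.962% against 22.03%. Inside the trophectoderm/amnion-like cluster a single member, VGLL1, kept the higher share in both samples, at 63.6% against 52.7% and 69.8% against 60.6%, with intervals that overlap. CCKBR was at 38.5% (20.2 to 59.4) against 54.5% and at 20.7% (7.99 to 39.7) against 63.4% there. The smallest of these groups hold 1 to 3 cells and their shares say little. How many of all genes have the higher share in both samples was not counted, so the count of 5 members is a description.

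Other genes of the same pathways give the setting. Of the syncytiotrophoblast list (38 genes, 19 with counts, 11 tested between blastoids and stem cells), 7 were higher and 2 lower, with a median log2 difference of 5.09 beside 0.05 for all genes. HOPX, CRH and SLC40A1 had the largest fitted differences, which for HOPX and CRH, unlisted in the stem cells, are no measured folds. HOPX and CRH could only be called higher. SLC40A1 (8.55) and PAPPA2 (8.21, edgeR adjusted p = 0.00085), both listed in the stem cells, rose on the log2 scale. HOPX was at 37.0 and 30.4 CPM (at least 98.1-fold above the stem cell limit, edgeR adjusted p = 1.3e-05) but lay mostly outside the trophectoderm/amnion-like cluster, in 47 of 298 cells and 52 of 268 cells. CRH, the placental releasing hormone, was at 7.55 and 15.9 CPM (at least 34.8-fold, edgeR adjusted p = 0.00053), with 20 of its 26 cells and 38 of its 53 in the cluster. The stress hormone gene GDF15 fell by 2.04 and the inhibitor TFPI2 by 0.93 on the log2 scale.

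Of the 10 genes of the fusion list 6 were tested, 1 was higher and 5 were lower, with a median of -0.90, where 22.8% of all genes were called lower. The gene that rose was ERVH48-1, whose product suppressyn blocks fusion by syncytin-1, from 3.02 and 4.34 to 45.6 and 32.6 CPM (log2 difference 3.26, edgeR adjusted p = 5e-05). ERVMER34-1 fell by 3.64 and MFSD2A, the receptor of syncytin-2, by 1.51 on the log2 scale. The 4 genes not tested, among them the syncytins, had 0 UMIs in both stem cell samples. In blastoid 3 and blastoid 4, ERVW-1 had 61 and 10 UMIs, ERVFRD-1 had 6 and 0, ERVV-1 had 7 and 0 and ERVV-2 had 14 and 0. The mean of ERVW-1 was at least 6.53-fold above the stem cell limit, with no test.

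Of 8 steroid genes tested, CYP19A1 was higher, FDXR and SCARB1 were lower, and 5 were not called, with a median of -0.34. CYP19A1 was at 0.377 and 0.189 CPM in the stem cells and 16.2 and 5.37 in the blastoids (5.09 ± 0.69, SE, edgeR adjusted p = 0.00097). HSD3B1, the enzyme that turns pregnenolone into progesterone, had 4 and 15 UMIs and was not tested. FDX1, the electron donor of CYP11A1, was at 55.2 and 50.6 CPM in the stem cells and 47.6 and 51.5 in the blastoids and was not called.

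Of the trophectoderm and cytotrophoblast list 16 of 20 genes were higher and 1 lower (ITGA6, by 1.64 on the log2 scale), with a median of 2.57, or 1.98 with unlisted genes at their bounds. GATA3, TFAP2A and CDX2 had the largest fitted differences, at least 354-fold, 221-fold and 171-fold above the stem cell limit. CDX2 lay in the trophectoderm/amnion-like cluster in 37 of its 654 cells of blastoid 3 and 58 of its 532 cells of blastoid 4. Of the amnion list, 12 of 13 were higher (median 6.49, or 5.29 with bounds). TFAP2B, ISL1 and WNT6 had the largest fitted differences, with bounds of at least 95.6-fold, 39.2-fold and 35.7-fold. POSTN (8.64) and IGFBP3 (7.50), both listed in the stem cells, rose on the log2 scale. POSTN, also among the mesenchyme markers used here, lay mostly outside the trophectoderm/amnion-like cluster. The cluster held 29 of its 490 cells in blastoid 3 and 23 of its 294 in blastoid 4. For IGFBP3 it held 258 of 850 cells and 470 of 933. The extravillous list had 4 of 6 higher, with NOTUM, ITGA1 and MMP2 highest, while HLA-G was at 5.28 and 4.71 CPM in the stem cells and 5.43 and 6.67 in the blastoids. All 4 surface ectoderm genes tested were higher, with a median of 3.12, and KRT17 and DSC3 stood next to TFAP2B. Tested but unlisted in the stem cells were 6 trophectoderm and cytotrophoblast genes, 4 amnion genes and 1 surface ectoderm gene. These could only be called higher. Of all genes tested, 27.1% were called higher.

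Partners and paralogs of the members were mixed, with 12 of 21 higher, 2 lower and a median of 0.73. FLT1, the receptor of PGF, fell by 1.52 on the log2 scale, from 83.1 and 88.5 CPM to 41.6 and 24.4, while its co-receptor NRP1 was at least 195-fold above the stem cell limit. VEGFC, another ligand of the family, and NR2F1, a paralog of NR2F2, were higher. NRP1 and NR2F1, unlisted in the stem cells, could only be called higher. The partners of VGLL1 were detected in both groups, and TEAD1 rose by 1.88 (edgeR adjusted p = 0.00011). CCK, a ligand of CCKBR, had 5 UMIs in each blastoid sample and was not tested. GAST, FSHB and the other XAGE genes of the list were listed under these symbols for none of the 4 samples.

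Within the trophectoderm/amnion-like cluster, 6 of 7 tested syncytiotrophoblast genes were lower in the cells with GABRP or VTCN1 and 1, PAPPA2, was higher (3.71 ± 0.25, SE, edgeR adjusted p = 2.4e-18), with a median of -1.61 beside 0.00 for all genes. CYP19A1 (-2.88) and HOPX (-2.81) fell the most. Among trophectoderm and cytotrophoblast genes 7 of 19 were lower and 1 was higher, with SIGLEC6 (-4.08) and CCR7 (-2.42) lowest and ENPEP (1.46) higher. Of 13 amnion genes 6 were higher and 1 lower, with ITGB6 (2.59), IGFBP5 (2.42) and HEY1 (2.13) highest, and 2 of 3 surface ectoderm genes were higher, KRT17 and TFAP2B, where 3.01% of all genes were called higher. In the steroid list CYP19A1 and HSD17B1 were lower and none was higher, and in the fusion list none of 3 was called. FLT1 (-1.80) and VEGFA (-1.27) were lower and SDC3 and TEAD1 higher. The 3 cells rich in CGA are among the cells without GABRP or VTCN1 here, and hold 200 of the 239 CYP19A1 UMIs of the cluster in blastoid 3.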

How the data were processed

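The members and gene lists were chosen with earlier results of these data known. The authors deposited raw UMI counts per gene and barcode. Per the submitters' processing notes, Cell Ranger and GRCh38 were used, and filters are not given in the sources used here. Barcodes with at least 500 genes and at most 20% mitochondrial UMIs were used. Scrublet (scanpy 1.11.5, expected rate 6%) called 73 of 9680 doublets (0.754%), which were left out, so doublets of like cells may remain.

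Cells were clustered (Leiden, resolution 0.5, leidenalg 0.10.2; 2000 variable genes, 30 components) without the members, GABRP, VTCN1 and 5 lists. A class name needed at least 3 markers in 10% of cells and, a condition added after seeing the clusters, a marker among the 10 leading genes.

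UMIs summed per sample, or per sample and cell set with the sample as a block, were tested with edgeR 4.0.16 (quasi-likelihood, TMM, filterByExpr, Benjamini-Hochberg over all genes, called under 0.05) and with DESeq2 1.42.0 as an alternative. SE is the log2 difference over the square root of F. The scripts were tested on simulated data. CPM means UMIs per 1e6 UMIs. Named list genes are the up to 3 highest and 2 lowest called per list; the other list genes were named for their link to a member after their values were seen. Correlations used UMIs per 10000 and genes in at least 20 cells of each sample. Total UMIs in kept cells were 13255214, 15913590, 15106405 and 17679447.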

Additional observations from a re-analysis of the deposited data

Results flagged for a closer look

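NR2F2 gave a signal in data that the comparisons do not use: 35 UMIs in blastoid barcodes with fewer than 500 genes, although neither stem cell table lists the gene. In blastoid 3 they were 34 UMIs in 34 of 1198 barcodes, or 74.8 CPM against 37.5 in its kept cells, and in blastoid 4 a single UMI in 120 barcodes. Of the 34, 31 lay in the 1035 barcodes that the blastoid 4 table also holds (84.9 CPM) and 3 in the other 163 (33.5 CPM). The kept cells of blastoid 4 were at 71.9 CPM. The cause was not tested. CGA, GCM1 and XAGE2 had 0 UMIs in these barcodes.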

How the results depend on the processing

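No paired analysis was possible because the stem cell and blastoid samples share no replicate number. The 6 members unlisted in the stem cells could only be called higher in the blastoids. Between blastoids and stem cells 9 members were called, 4 without cells of shared barcodes (fewer cells) and 6 to 8 with a sample left out. The genes called were 8157, and 4896 to 10157 with a sample left out. With GABRP or VTCN1, 9 members were called. It was 4 with DESeq2, 5 without the sample block, 3 after thinning to 2000 UMIs and, settings added after seeing the data, 6 within the trophectoderm/amnion-like cluster and 4 there without the cells rich in CGA. The genes called were 6991, and 2977, 3499, 2948, 552 and 475 under these settings. Over all kept cells XAGE2 and TP63 could only be called higher, and within the cluster CGA and GCM1 could only be called lower. Scaling by library size alone moved the share of lower calls from 48.6% to 61.7%. Within the cluster CYP11A1 (-2.69, and -1.38 without the cells rich in CGA) and CCKBR (-2.88 and -2.74) reversed and were called. NR2F2 (-0.42 and -0.41) and VGLL1 (-0.45 and -0.13) changed sign and were not called (edgeR adjusted p = 0.11 and 0.12, and 0.40 and 0.92). Co-detection with GABRP or VTCN1 was higher for 5 members, and for 1 within the cluster, a description with no such count over all genes. Where no construction such as fewer cells shows it, the cause was not tested. Leaving out a blastoid sample leaves the GABRP or VTCN1 comparison no residual degrees of freedom, so each sample's values are given instead. Depth limits GCM1, XAGE2 and TP63, with 12 to 19 UMIs per sample.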
